A study of Mus musculus with 2 samples.

Results

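The genes described here are 10 regulatory and co-stimulatory T cell genes, namely Foxp3, Ikzf2, Ctla4, Il2ra, Icos, Tnfrsf4, Tnfrsf9, Tnfrsf18, Pdcd1 and Il10. They were taken by symbol from the gene list of the matrices, which holds 28692 gene IDs, and all 10 were found once. Their raw unique molecular identifier (UMI) counts were summed over the cells of each deposited cluster in each library. The study fed wild-type C57BL/6 mice either normal chow or a ketogenic diet for 1 week and sequenced single CD45+ cells (leukocytes) of adipose tissue, after intravenous labelling had marked the cells inside vessels. Each diet is 1 10x Genomics library, so there is no replicate of either diet and no test between them. Every interval below is a 95% interval for counting error alone, and how many mice gave cells to a library is not stated in the sources used here. The mice of both groups carry no stated allele, and the labels call the mice adult and name neither the fat depot nor an age.

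Regulatory T cells restrain other immune cells, and the transcription factor encoded by Foxp3 defines their lineage. In visceral fat they are known as a resident population that carries the receptor for the alarmin IL-33 and makes amphiregulin. CTLA4 and PD-1 (Pdcd1) are inhibitory receptors of T cells. ICOS and the tumour necrosis factor receptor family members OX40 (Tnfrsf4), CD137 (Tnfrsf9) and GITR (Tnfrsf18) are co-stimulatory receptors, most of them raised after activation. Several of these receptors also occur on innate lymphoid cells, natural killer (NK) cells and gamma-delta T cells, so the genes need not mark the same cells.

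The chow library held 4545 cells, of which 4458 had a cluster, and the ketogenic library held 5614, of which 5559 had one. Median depth was 3469 and 3461.5 UMIs per cell, and the libraries shared 41 cell barcodes, 3 of them in the same cluster. Clusters carry numbers from 0 to 12 in the deposited table and no names. By marker lists, cluster 0 was like group 2 innate lymphoid cells (ILC2), 1 like NK cells, 2 like CD4 and CD8 T cells, 5 and 6 like conventional dendritic cells of the cDC2 and cDC1 kinds, 9 like B and plasma cells, 11 like gamma-delta T cells and 12 like mature dendritic cells. In cluster 5, 5 of 6 markers of plasmacytoid dendritic cells were raised as well as 3 of 7 cDC2 markers, but only cDC2 markers were among its 10 leading genes. Cluster 10 held cycling cells, cluster 3 macrophage-like and monocyte-like cells, and clusters 4 and 8 stayed unnamed, cluster 4 with both T cell and NK genes. Cluster 7 was Treg-like (Treg, regulatory T cell), with 9 of 12 Treg markers raised, but 7 of those 9 are among the genes described here, so its name is no independent finding. Of 10 ILC2 markers, 7 were raised there too, and Areg and Klrg1 of that list were among its 10 leading genes. It held 160 chow and 328 ketogenic cells. Because the clusters were made from all genes, levels by cluster are a description. No doublet caller was run, and the labels do not say whether doublets had been removed.

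On the mouse genome (GRCm38, GENCODE M21) Foxp3 lies on the plus strand of chromosome X (7573644 to 7595245). Ctla4 (chromosome 1 from 60887000 to 60915832) and Icos (chromosome 1 from 60977927 to 61000320) are neighbours on the plus strand, with 62094 bases between them. Tnfrsf4 (chromosome 4 from 156013843 to 156016612) and Tnfrsf18 (chromosome 4 from 156026164 to 156028895) are also neighbours on one strand, 9551 bases apart. Tnfrsf9 lies farther off on the plus strand of chromosome 4 (150914562 to 150946102). Ikzf2 (69531214 to 69687245) and Pdcd1 (94038305 to 94052553) lie on the minus strand of chromosome 1, Il10 on its plus strand (131019845 to 131024974) and Il2ra on the plus strand of chromosome 2 (11642807 to 11693193). Whether the counting used strand is not given in the sources used here, so reads of Foxp3 could be mixed with those of Ppp1r3f and Ccdc22, and those of Tnfrsf9 with Camta1, each annotated on the opposite strand of the same stretch. Flicr, a noncoding gene on the strand of Foxp3, overlaps it too and had 25 UMIs of its own.

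Promoters are shown for the genes whose levels the results turn on, to let the sequence upstream of each be seen beside its levels. The 250 bases upstream of the start come from RefSeq on GRCm38.p6, all on the plus strand, for Foxp3 (chrX:7579426-7579675), Ctla4 (chr1:60908775-60909024), Tnfrsf4 (chr4:156013445-156013694), Tnfrsf9 (chr4:150919905-150920154) and Tnfrsf18 (chr4:156026072-156026321). The table lists more than 1 start for Foxp3 and Tnfrsf9, and the start it lists first is used. Capitals mark every match, on either strand, to any of 4 motifs. The core that NFAT factors bind was searched as GGAAA. The motif of STAT factors was searched as TTCNNNGAA. A motif of forkhead factors, the family of FOXP3, was searched as TGTTTAC. The box that helps place transcription starts was searched as TATAAA. No motif is contained in another.
Foxp3: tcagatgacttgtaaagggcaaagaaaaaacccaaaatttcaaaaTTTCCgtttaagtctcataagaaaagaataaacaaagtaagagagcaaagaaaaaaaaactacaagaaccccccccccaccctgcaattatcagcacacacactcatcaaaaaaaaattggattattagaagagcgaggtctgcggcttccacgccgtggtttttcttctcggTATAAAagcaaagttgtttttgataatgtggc
Ctla4: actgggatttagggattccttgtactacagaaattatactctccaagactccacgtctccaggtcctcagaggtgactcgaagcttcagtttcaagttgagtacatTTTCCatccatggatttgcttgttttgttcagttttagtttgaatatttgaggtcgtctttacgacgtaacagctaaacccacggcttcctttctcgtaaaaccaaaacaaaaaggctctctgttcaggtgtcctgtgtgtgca
Tnfrsf4: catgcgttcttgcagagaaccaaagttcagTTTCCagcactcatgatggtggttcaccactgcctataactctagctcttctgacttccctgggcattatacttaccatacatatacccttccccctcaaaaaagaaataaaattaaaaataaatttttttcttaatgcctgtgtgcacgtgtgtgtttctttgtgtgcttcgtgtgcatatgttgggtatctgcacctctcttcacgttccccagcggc
Tnfrsf9: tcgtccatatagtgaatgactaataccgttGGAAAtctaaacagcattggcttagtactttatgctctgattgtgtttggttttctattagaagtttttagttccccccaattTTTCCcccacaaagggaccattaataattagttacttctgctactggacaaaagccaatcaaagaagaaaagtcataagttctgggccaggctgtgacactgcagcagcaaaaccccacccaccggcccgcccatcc
Tnfrsf18: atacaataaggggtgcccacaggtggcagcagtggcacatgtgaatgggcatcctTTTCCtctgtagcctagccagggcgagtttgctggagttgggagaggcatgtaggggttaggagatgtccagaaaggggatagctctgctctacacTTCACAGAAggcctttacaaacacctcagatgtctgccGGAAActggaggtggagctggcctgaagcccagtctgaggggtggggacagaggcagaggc
The table held promoters for 7 of the 10 genes, and all 7 had at least 1 GGAAA, which 55.6% of all 32851 windows of this length also hold. TTCNNNGAA occurred in Tnfrsf18 alone, beginning 99 bases before its start, against 7.02% of all windows. TATAAA occurred in Foxp3 alone, beginning 32 bases before its start, against 12.4% of all windows. The forkhead letters TGTTTAC were in none of the 7 windows and in 3.17% of all. These matches are letters only, and none is shown to be a bound site.

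Foxp3 was high in cluster 7 and low in every other cluster. Levels are given as CPM, the usual scaling of summed counts to all UMIs of the same cells. Its summed level in cluster 7 was 145 CPM in the chow library (113 to 182) and 106 CPM in the ketogenic library (89.8 to 124). Cluster 2 came next, at 17.7 and 15.8 CPM, and each of the other 11 clusters stood at or below 6.27 CPM in both libraries. Neither library had a Foxp3 UMI in the gamma-delta T-like cluster 11 or in cluster 12. At 3 counts this allows up to 15.8 and 4.4 CPM in chow and ketogenic cells of cluster 11. In cluster 12 it allows up to 7.7 and 8.67 CPM. By the exact interval the chow limit in cluster 11 is 19.4 CPM, so a level like that of cluster 2 is not excluded there. Of all Foxp3 UMIs, 57.6% lay in cluster 7 in the chow library (48.4 to 66.4) and 64.4% in the ketogenic library (57.9 to 70.5). Most of the rest lay in cluster 2 in the ketogenic library, at 18.9%, while in the chow library 9.6% lay in cluster 8, 8.8% in cluster 2 and 8% in cluster 3.

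Cell by cell the gene was sparse. After every cell was thinned to 1000 UMIs, which left out no cell, 16.3% of chow cells in cluster 7 (10.9 to 22.9) and 12.2% of ketogenic cells (8.86 to 16.2) had a Foxp3 UMI. Unthinned, the shares were 30% and 30.5%, at median depths of 2489 and 3527.5 UMIs. In the cDC1-like cluster 6, which should lack the gene, the thinned expectation rounded to 0 of 307 chow cells. At 3 counts this allows a thinned share of up to 0.977% (1.19% by the exact interval). The thinned share of its ketogenic cells was 0.282%. Unthinned, 4 of the 307 chow cells (1.3%) and 1.97% of ketogenic cells there had a Foxp3 UMI, at median depths of 7906 and 9922. Over all clustered cells the thinned share was 0.808% in the chow library (0.566 to 1.12) and 1.04% in the ketogenic library (0.793 to 1.35). Their ratio was 1.29 with an interval from 0.838 to 2.02, so no difference in thinned shares was detectable at this depth. Unthinned, the shares were 2.06% and 2.97% (ratio 1.44). Summed Foxp3 UMIs had a ratio of 1.54 with an interval above 1 (1.23 to 1.93). With each cluster given the same weight in both libraries that ratio was 0.782. Over the lymphoid clusters 0, 1, 2, 4, 7 and 11 alone the ratio of thinned shares was 0.924.

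**Figure D1:**
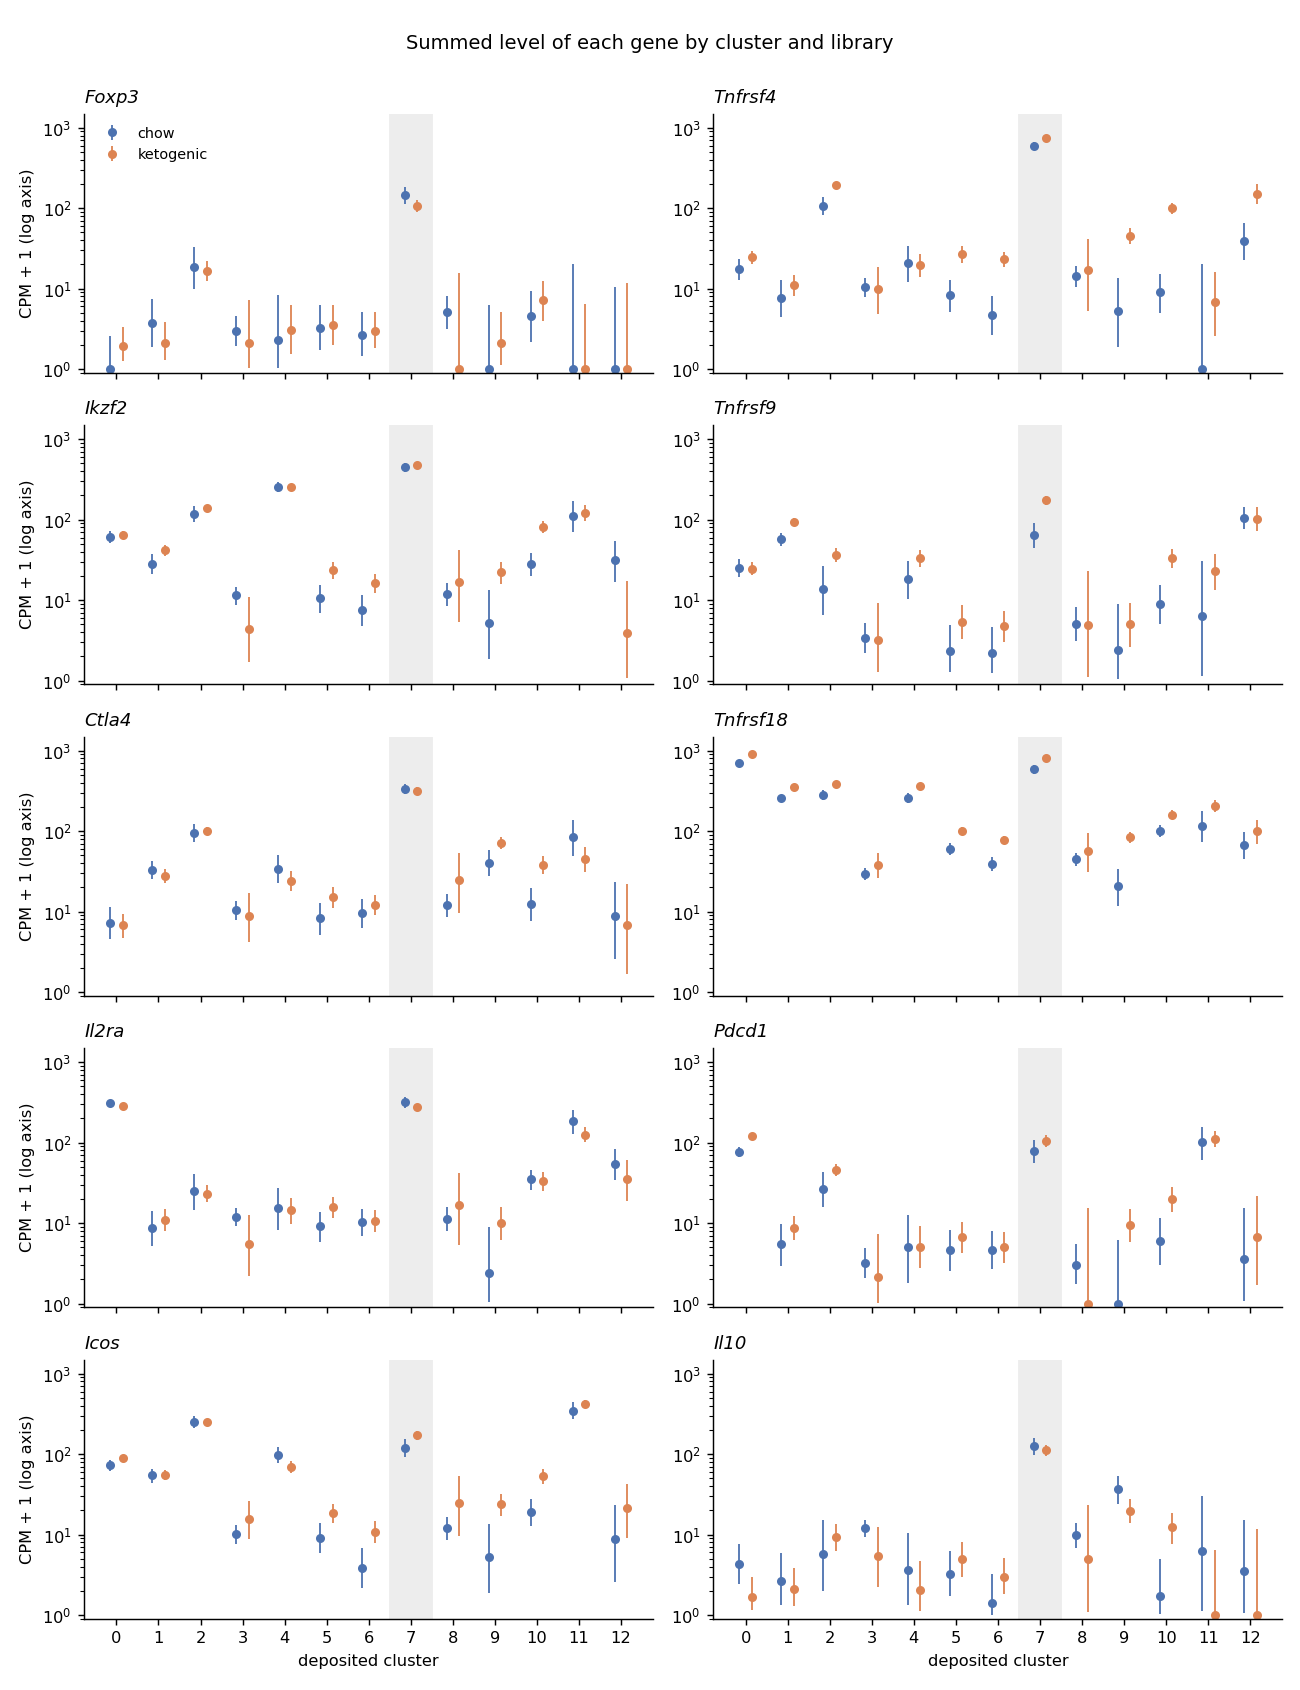
Summed level of each of the 10 genes in the 13 deposited clusters, as CPM + 1 on a log axis, in the chow library (blue) and the ketogenic library (orange). Bars are exact Poisson 95% intervals, and the grey band marks cluster 7, where Foxp3 stood at 145 and 106 CPM against at most 17.7 CPM in any other cluster.

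Ikzf2, which encodes the transcription factor Helios, was highest in cluster 7 and reached well beyond it. Its level there was 446 CPM in the chow library and 480 CPM in the ketogenic library. The unnamed cluster 4 followed at 254 and 252 CPM, and clusters 2 (117 and 137 CPM) and 11 (111 and 120 CPM) overlapped each other. Only 25.4% and 28.9% of its UMIs lay in cluster 7. Cluster 7 and cluster 4 did not overlap, and within each of them the libraries lay close together.

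Ctla4, the inhibitory receptor for CD80 and CD86, stood at 335 CPM in chow and 319 CPM in ketogenic cells of cluster 7. Cluster 2 came next at 94.9 and 99.7 CPM, then cluster 11 at 84.3 and 44 CPM and the B and plasma-like cluster 9 at 39.7 and 70 CPM, which overlapped. The ILC2-like cluster 0 was lowest of all in its mean, at 6.31 and 5.74 CPM. Ctla4 thus separated cluster 7 from cluster 0 by a wide margin, which Il2ra did not.

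Il2ra, the alpha chain of the IL-2 receptor, was as high in the ILC2-like cluster 0 (313 and 287 CPM) as in cluster 7 (319 and 274 CPM), and the libraries' ranges overlapped. Cluster 11 came next at 184 and 125 CPM. Since cluster 0 held many more cells, 63.4% and 62.2% of all Il2ra UMIs lay in it, against 13.5% and 19.3% in cluster 7.

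Pdcd1, the gene of PD-1, had the same 3 clusters at its head. It stood at 100 and 110 CPM in cluster 11, 75.7 and 121 CPM in cluster 0 and 78.3 and 104 CPM in cluster 7, all overlapping in range. The next, cluster 2, was lower at 25.7 and 45.2 CPM. Most of its UMIs, 58.6% and 53.2%, lay in cluster 0.

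Icos, a co-stimulatory receptor of the CD28 family, was highest in the gamma-delta T-like cluster 11, at 348 CPM in the chow library (269 to 442) and 421 CPM in the ketogenic library (373 to 472). Cluster 2 followed at 251 and 249 CPM and cluster 7 at 118 and 170 CPM, and the ranges of these 3 clusters did not overlap. After thinning, 25.4% of chow and 32.4% of ketogenic cells in cluster 11 had an Icos UMI (54.2% and 68.8% unthinned, at median depths of 3052 and 3703). In cluster 6 the thinned shares were 0.326% and 0.845%.

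Among the tumour necrosis factor receptors, Tnfrsf4 followed Foxp3 most closely. It stood at 594 CPM in chow cells of cluster 7 (528 to 666) and at 744 CPM in ketogenic cells (699 to 790). Cluster 2 followed at 106 and 193 CPM, and the mature dendritic cell-like cluster 12 at 38.5 and 150 CPM, with overlapping ranges. Cluster 7 held 52% of its UMIs in the chow library and 47.5% in the ketogenic library.

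Tnfrsf18 was found in every cluster. The ILC2-like cluster 0 stood at 692 and 905 CPM and cluster 7 at 584 and 822 CPM, overlapping. Clusters 2 (283 and 384 CPM), 4 (258 and 363 CPM) and 1 (257 and 356 CPM) followed and overlapped as well. No cluster was below 19.8 CPM in either library.

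Tnfrsf9 had 3 clusters at its head that belong to different cell types. Cluster 7 stood at 64.2 CPM in the chow library and 173 CPM in the ketogenic library, a range that takes in cluster 12, at 105 and 101 CPM. The NK-like cluster 1 followed at 56.2 and 92.6 CPM. The NK-like cluster held the largest share of its UMIs, 34.2% in chow and 34% in ketogenic cells, while the share in cluster 7 was 10.8% (7.54 to 15) in the chow library and 25% (22.3 to 27.9) in the ketogenic library.

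Il10, which encodes the inhibitory cytokine, stood at 124 CPM in chow and 111 CPM in ketogenic cells of cluster 7. Cluster 9 was second at 35.4 and 18.8 CPM, and no other cluster exceeded 11.3 CPM in either library. A single cell supplied 27.4% of the Il10 UMIs of cluster 7 in the chow library and 18.5% in the ketogenic library, and 52% and 36.4% of those of cluster 9, so its levels rest on few cells. Of all Il10 UMIs, 32% (25.5 to 39) lay in cluster 7 in the chow library and 59.7% (53.5 to 65.7) in the ketogenic library. With cells thinned to 1000 UMIs the shares were 53.9% and 71.4%. In the chow library another 28.9% lay in cluster 3, which held 859 chow cells and 145 ketogenic cells.

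**Figure D2:**
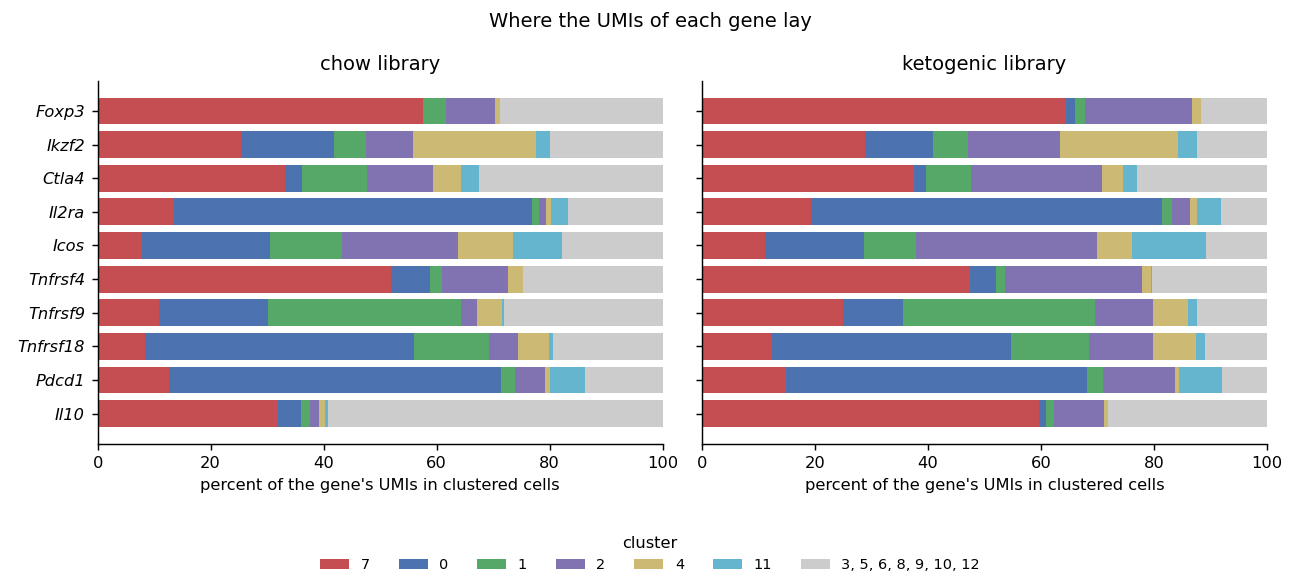
Percent of each gene's UMIs in clustered cells that lay in clusters 7, 0, 1, 2, 4 and 11 and in the other 7 clusters together (grey), in the chow library (left) and the ketogenic library (right). Cluster 7 (red) held 57.6% and 64.4% of Foxp3 UMIs but 8.4% and 12.5% of Tnfrsf18 UMIs, most of which lay in cluster 0 and other lymphoid clusters.

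Several of the genes were found together in single cells of cluster 7. In 40.6% of its chow cells and 45.7% of its ketogenic cells at least 5 of the 10 genes had a UMI, against at most 11.7% in any other cluster and library. After thinning, a cell of cluster 7 had on average 2.33 of the genes in the chow library and 2.32 in the ketogenic library. Gene by gene, the thinned share of cells with a UMI in cluster 7 ran from 5.18% for Il10 in ketogenic cells to 54.3% for Tnfrsf18 in ketogenic cells. In the cDC1-like cluster 6 each gene was below its share in cluster 7, and the highest was Tnfrsf18 at 3.58% and 7.04%. The mean numbers of genes per cell in cluster 0 were 0.961 and 1.08. Outside cluster 7 single cells had as many as 9 of the genes in cluster 3 and 8 in each of clusters 8 and 10 in the chow library. In the ketogenic library they had as many as 10 in cluster 10 and 8 in each of clusters 2, 5 and 9. Whether those cells are doublets was not tested.

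Genes with a level over clusters most like each of the 10 were ranked by Pearson's r of log2(CPM + 10) over the 26 sums of cluster and library, among 10334 genes. These r values are a description, since the sums share libraries and the clusters were made from the same genes. For Foxp3 they were Ccr3 (r = 0.96), Frmd5 (0.89) and Lclat1 (0.88), and for Il10 they were Ccr3 (0.83), Foxp3 itself (0.82) and Lamc1 (0.81). Ctla4 was followed by Lamc1 (0.86), Syt11 (0.85) and Tnfsf8 (0.82), and Tnfrsf4 by 5033430I15Rik (0.84), Foxp3 (0.83) and Sdcbp2 (0.81). Ikzf2 was nearest to the T cell receptor component Cd3g (0.90), Tnfsf8 (0.89) and Cd40lg (0.88), and Icos to the adaptor Lat (0.97), Bcl11b (0.95) and Cd3g (0.94). Pdcd1 was nearest to Tnfrsf25 (0.98), Tnfsf11 (0.97) and Rora (0.96), and Il2ra to Fam110a (0.93), Rora (0.91) and Xlr4a (0.91). Tnfrsf18 was nearest to the transcription factor Gata3 (0.94) and to Dtnb (0.93), and Tnfrsf9 to Socs2 (0.84), Adora2a (0.82) and Serpinb6b (0.82). Over the same sums Foxp3 had r = 0.83 with Tnfrsf4, 0.79 with Ctla4 and 0.38 with Icos. Spearman's rho of these pairs was lower, at 0.43, 0.41 and 0.15.

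Between diets, Tnfrsf9 alone of the 10 genes was past 2-fold in cluster 7, counted from ratios with 0.5 added to each UMI count. It had 32 UMIs in 160 chow cells (64.2 CPM, 43.9 to 90.7) and 245 UMIs in 328 ketogenic cells (173 CPM, 152 to 196). The ketogenic level was 2.70-fold that of chow (1.86 to 4.03), and the libraries' intervals did not overlap. After thinning, 7.5% of chow cells in the cluster (3.94 to 12.7) and 11.6% of ketogenic cells (8.33 to 15.5) had a Tnfrsf9 UMI, against 0 of 307 and 0.282% in the cDC1-like cluster 6. These shares overlapped, their ratio of 1.55 had an interval from 0.79 to 3.25, and no difference in the share of cells was detectable at this depth. Unthinned, they were 15% and 25.3%, at median depths of 2489 and 3527.5, against 0.977% and 2.82% in cluster 6. No single cell supplied more than 9.39% of its UMIs. Of the 6742 genes that reached 20 UMIs, both libraries together, in cluster 7, 9.11% were at least 2-fold apart in either direction, so 1 of 10 is near the background.

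The other co-stimulatory receptors were higher in the ketogenic library of cluster 7 by smaller ratios. Icos stood at 118 against 170 CPM (ratio 1.44, 1.08 to 1.95), Tnfrsf18 at 584 against 822 CPM (1.41, 1.24 to 1.60) and Tnfrsf4 at 594 against 744 CPM (1.25, 1.10 to 1.43). Foxp3 itself was lower, with a ratio of 0.734 and an interval from 0.55 to 0.986. For Ikzf2 (1.08, 0.924 to 1.26), Ctla4 (0.951, 0.795 to 1.14), Il2ra (0.857, 0.711 to 1.04), Pdcd1 (1.33, 0.927 to 1.94) and Il10 (0.892, 0.661 to 1.22) the interval took in 1. The median log2 ratio of the 10 genes was 0.21 with 6 above 0, against 0.08 and 56.2% above 0 over all 6742 genes. Marker lists moved in this cluster too. The CD4 T cell markers summed to 3063 CPM in chow and 4065 CPM in ketogenic cells, the ILC2 markers to 4047 and 3748 CPM, the monocyte markers to 2258 and 1241 CPM and the macrophage markers to 134.5 and 46 CPM, and their part in these ratios was not tested.

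**Figure D3:**
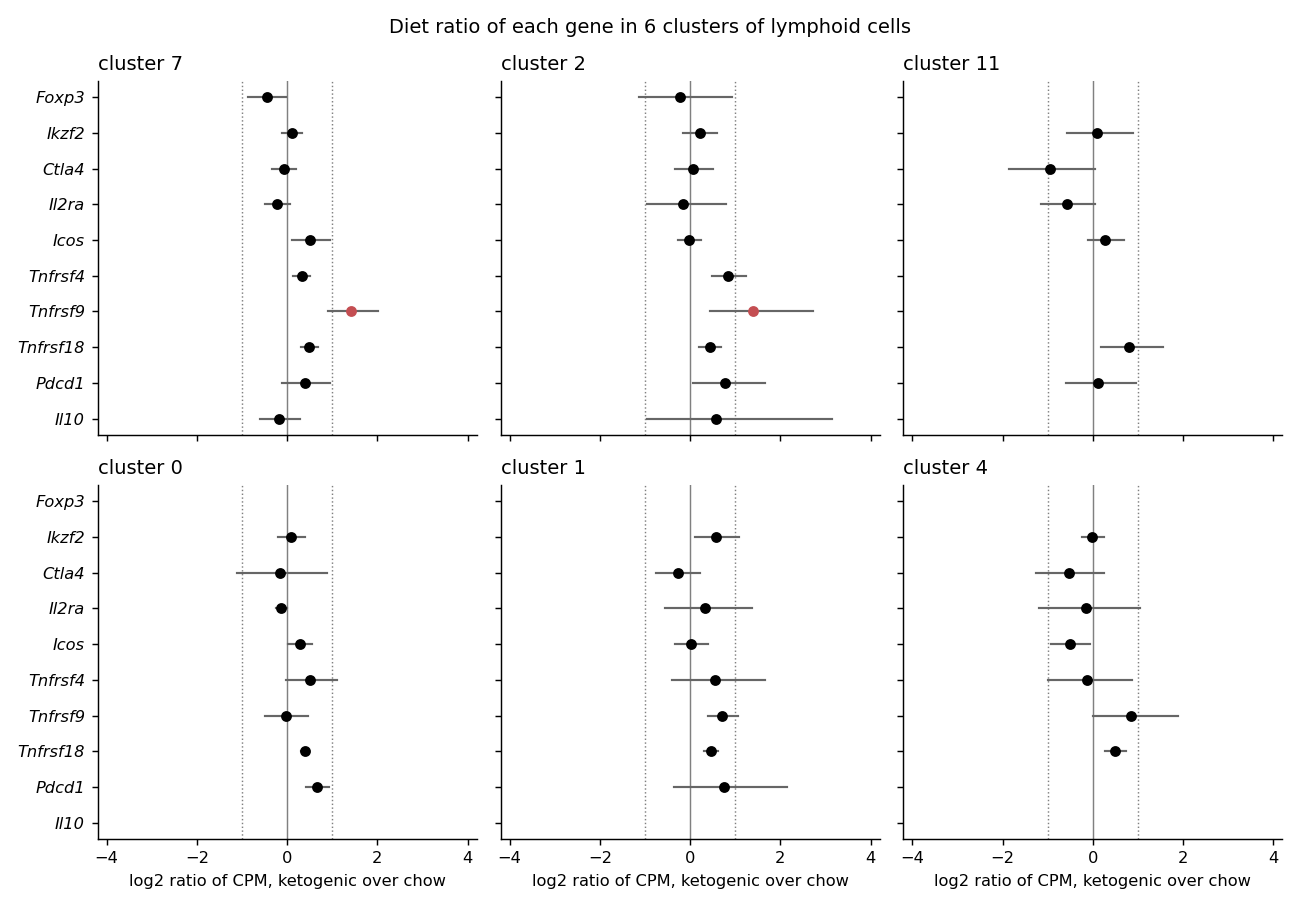
Log2 ratio of CPM, ketogenic over chow, of each of the 10 genes in clusters 7, 2, 11, 0, 1 and 4, for genes that reached 20 UMIs in the cluster. Lines are exact 95% intervals for counting error, dotted lines mark 2-fold, and red points (Tnfrsf9 in clusters 7 and 2) are past it.

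The other lymphoid clusters differed among themselves. In the T-like cluster 2, Tnfrsf9 stood at 12.9 CPM in chow cells and 35.9 CPM in ketogenic cells (ratio 2.79, 1.36 to 6.63), and it was the only 1 of the 10 genes past 2-fold, where 9.83% of all genes were. Tnfrsf4 stood at 106 and 193 CPM there (ratio 1.81, 1.40 to 2.38). Cluster 2 was split by UMIs of Cd4 and of the Cd8 genes. In its 56 chow and 212 ketogenic cells with Cd4 alone, Tnfrsf4 stood at 139 and 316 CPM (ratio 2.27, 1.42 to 3.84). In its 46 and 206 cells with Cd8 alone, Tnfrsf4 stood at 35.5 and 38.5 CPM (ratio 1.09, 0.416 to 3.6). The remaining 134 and 403 cells, with neither or both, held most of its UMIs there, 42 and 269, at 122 and 210.5 CPM (ratio 1.72, 1.24 to 2.45).

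In the NK-like cluster 1, Tnfrsf9 stood at 56.2 CPM in chow cells (45.8 to 68.3) and 92.6 CPM in ketogenic cells (83 to 103), a ratio of 1.65 (1.32 to 2.08). After thinning, 4.97% and 7.44% of its cells had a Tnfrsf9 UMI (ratio 1.5, 0.997 to 2.28). In the ILC2-like cluster 0, Tnfrsf9 was alike in both libraries, at 24 and 23.6 CPM (ratio 0.986, 0.707 to 1.39), and Pdcd1 stood at 75.7 against 121 CPM (ratio 1.59, 1.34 to 1.9). Tnfrsf18 was higher in the ketogenic library in each of clusters 0, 1, 2, 4, 7 and 11, with ratios of 1.31, 1.39, 1.36, 1.41, 1.41 and 1.78, each with an interval above 1. It was also higher in clusters 5 (1.7, 1.38 to 2.11), 6 (1.58 to 2.56 around a ratio of 2), 9 (4.16, 2.4 to 7.8) and 10 (1.59, 1.29 to 1.97), while in clusters 3, 8 and 12 the ratios of 1.3, 1.27 and 1.47 had intervals that took in 1. In cells without a UMI of Cd3e, Cd3d or Cd3g the Tnfrsf18 ratio was 1.18 (0.889 to 1.57) in cluster 5. In such cells of cluster 10 it was 0.963 (0.647 to 1.42). In cells with such a UMI it was 2.24 (1.55 to 3.32) and 1.5 (1.13 to 2). Cluster 12 went the other way, at 2.19 (1.15 to 4.28) without and 0.547 (0.173 to 1.65) with. None of the 8 genes that reached 20 UMIs in cluster 0 was past 2-fold (5.94% of all genes were), nor any of 8 in cluster 1 (5.43%), 7 in cluster 4 (7.52%) or 6 in cluster 11 (11.1%). In cluster 4, Icos stood at 96.9 and 68.6 CPM (ratio 0.708, 0.528 to 0.955). In cluster 11, Icos had a ratio of 1.21 (0.923 to 1.61) and Ctla4 one of 0.522 (0.276 to 1.02).

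Cells of cluster 7 were next split by whether they had a Foxp3 UMI, 48 against 112 cells in the chow library and 100 against 228 in the ketogenic library. The cells with Foxp3 were the shallower ones in both libraries, with median depths of 2117.5 against 2794 and of 3185.5 against 3613 UMIs. All 9 other genes had a higher level in the cells with Foxp3 in both libraries, as did 25.9% of all genes with 20 or more UMIs in the cluster. Ctla4 was 3.46-fold higher in chow cells (2.52 to 4.74) and 3.07-fold in ketogenic cells (2.54 to 3.71). Ikzf2 was 2.08-fold (1.56 to 2.75) and 2.63-fold (2.26 to 3.07) higher, and Tnfrsf4 2.33-fold (1.83 to 2.95) and 3.55-fold (3.13 to 4.02). Tnfrsf18 differed by 1.23-fold (0.934 to 1.6) and 1.74-fold (1.55 to 1.96), and Pdcd1, on fewer UMIs, by 4.42-fold (2.24 to 8.86) and 2.26-fold (1.61 to 3.17). Il2ra was 2.02-fold and 2.17-fold higher and Icos 1.5-fold and 1.71-fold. Il10 was 1.4-fold (0.76 to 2.47) and 5.33-fold (3.78 to 7.61) higher, though 1 cell held 27.4% and 18.5% of its UMIs in the cluster. Tnfrsf9 was 2.34-fold higher in chow cells (1.06 to 4.99) and 7.04-fold in ketogenic cells (5.27 to 9.52). In the chow library the intervals of Tnfrsf18, Icos and Il10 took in 1, and in the ketogenic library none did. With cells split at 2 or more Foxp3 UMIs, Tnfrsf9 in the chow library (0.927, 0.107 to 3.65) and Il10 in the ketogenic library (0.848, 0.463 to 1.45) turned direction, and 7 of the 9 genes were higher in both libraries, as were 22% of all genes under that split.

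In the cells of cluster 7 with Foxp3, Tnfrsf9 stood at 115 CPM in the chow library (61.3 to 197) and 447 CPM in the ketogenic library (384 to 517), a ratio of 3.88 (2.21 to 7.42). In the cells without a Foxp3 UMI it stood at 49.3 and 63.4 CPM, a ratio of 1.29 (0.761 to 2.27). These intervals overlap slightly, and the difference between them was not tested. With cells split at 2 or more Foxp3 UMIs, the Tnfrsf9 ratio was 6.5 (1.73 to 54.9, on 2 and 61 UMIs) in the cells above that number and 2.27 (1.53 to 3.45) in the rest. The Il10 ratios went opposite ways, 1.66 (0.999 to 2.9) in the cells with Foxp3 and 0.434 (0.284 to 0.666) in the cells without, on 18 and 107 UMIs and on 44 and 50 UMIs. Only 20 chow and 35 ketogenic cells of the cluster had an Il10 UMI. The richest cell held 17 of 62 chow UMIs and 29 of 157 ketogenic UMIs. These Il10 ratios can therefore turn on 1 cell, and they were not recomputed without it. Under the split at 2 or more UMIs the Il10 ratio was 0.457 (0.175 to 1.33) in the cells above that number and 0.954 (0.694 to 1.33) in the rest, so its direction in the cells with Foxp3 depends on the number chosen. Tnfrsf4 stood at 1063 and 1525 CPM with Foxp3 (ratio 1.43, 1.18 to 1.76) and at 457 and 430 CPM without (0.942, 0.788 to 1.13). For Tnfrsf18 the ratios were 1.73 (1.36 to 2.23) with Foxp3 and 1.22 (1.05 to 1.43) without.

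**Figure D4:**
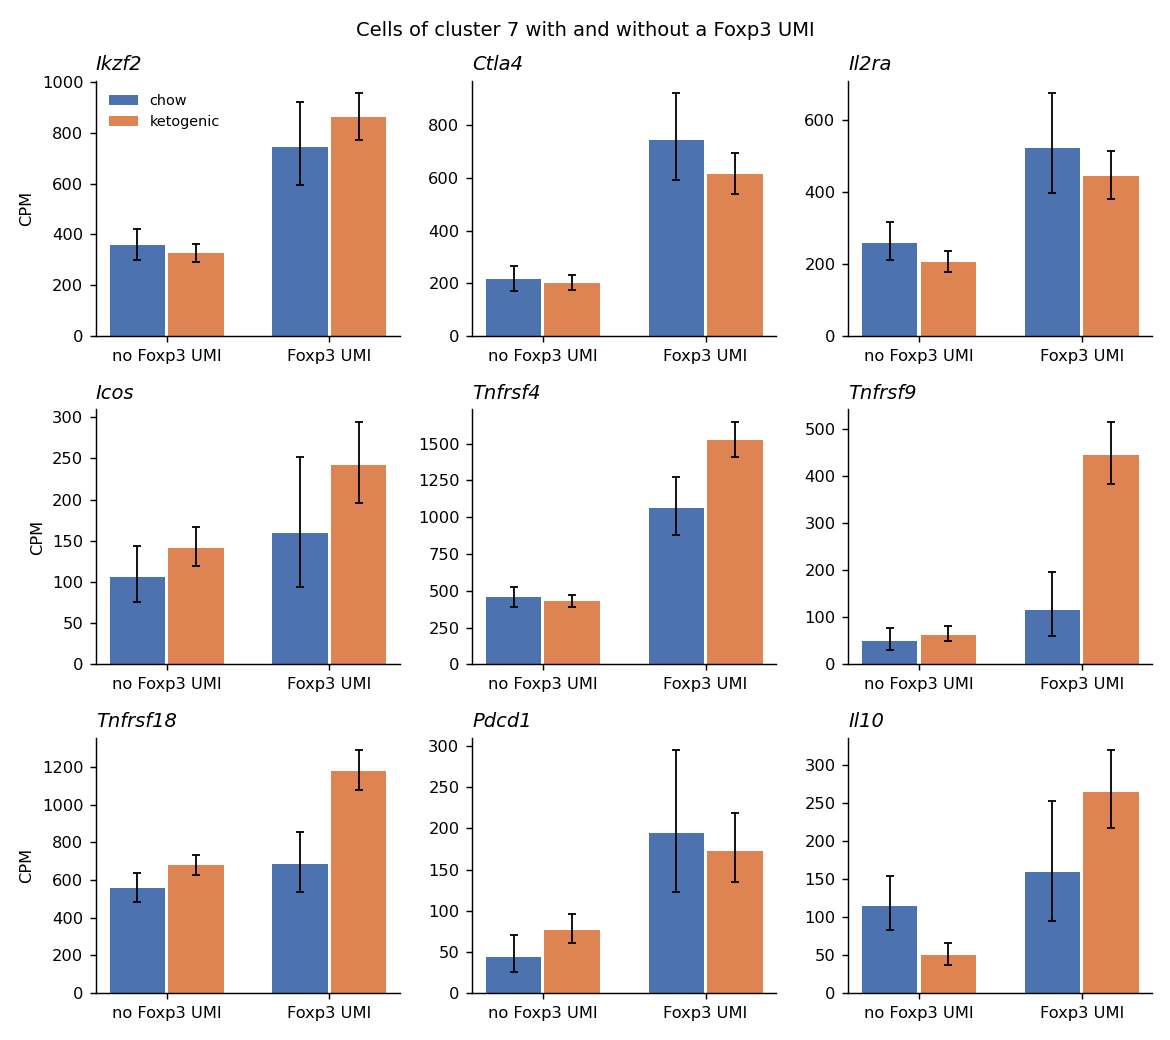
Level of the other 9 genes in cells of cluster 7 without and with a Foxp3 UMI, as CPM of summed UMIs, in the chow library (blue) and the ketogenic library (orange). Error bars are exact Poisson 95% intervals, and Tnfrsf9 reaches 447 CPM in ketogenic cells with Foxp3 against 115 CPM in chow cells with Foxp3.

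Splitting cluster 7 by Il1rl1, which encodes the IL-33 receptor, gave a Tnfrsf9 ratio of 2.67 (1.79 to 4.12) in cells with an Il1rl1 UMI and 3.33 (1.23 to 12.6) in cells without. Cells with an Il1rl1 UMI were 132 of 160 in the chow library and 229 of 328 in the ketogenic library. All 62 chow Il10 UMIs of the cluster lay in cells with Il1rl1, while in the ketogenic library 36 of 157 lay in cells without. Those chow UMIs came from 20 cells, 1 of which held 17, and the ketogenic ones from 35 cells, 1 of which held 29. Icos in the ketogenic library was lower in cells with Il1rl1, at 148 CPM, than in cells without, at 231 CPM (ratio 0.64, 0.489 to 0.84). In the chow library the ratio was 1.1 (0.552 to 2.44), on 49 and 10 UMIs.

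In the cycling cluster 10, 6 of the 8 genes that reached 20 UMIs were at least 2-fold higher in the ketogenic library, where 6.63% of all genes were. Tnfrsf4 stood at 7.98 CPM in chow cells and 99.7 CPM in ketogenic cells (ratio 12.5, 6.8 to 25.6), though 1 cell supplied 27.3% and 27% of its UMIs. The other 5 were Tnfrsf9 (ratio 4.01, 2.06 to 8.53), Pdcd1 (3.71, 1.595 to 9.995), Ctla4 (3.19, 1.81 to 5.94), Ikzf2 (3.02, 2.08 to 4.47) and Icos (2.87, 1.82 to 4.69). In chow and ketogenic cells, 1 cell supplied 36.4% and 27.45% of the Tnfrsf9 UMIs and 28.6% and 13.3% of those of Pdcd1. For Ctla4 these shares were 18.75% and 35.6%, for Ikzf2 35.1% and 13.95% and for Icos 16% and 4.82%. Markers of other cells differed there too. Cells with a UMI of Cd3e, Cd3d or Cd3g were 51 of 142 in the chow library and 101 of 154 in the ketogenic library (35.9% and 65.6%, or 15.2% and 38.9% thinned, at median depths of 9720.5 and 10049). The cDC1-like cluster 6, which should lack Cd3, had 19.2% and 36.6% of such cells, or 3.03% and 7.5% thinned, at median depths of 7906 and 9922, and this background was also higher in the ketogenic library. In cluster 10 the 10 CD4 T cell markers, none of them at 0, summed to 476 and 1758 CPM. The NK markers stood at 567 and 1512 CPM, the B cell markers at 414 and 1093 CPM, the plasma cell markers at 623 and 1446 CPM, the monocyte markers at 3462 and 1520 CPM and the macrophage markers at 360 and 125 CPM, and their part in these ratios was not tested beyond a split by Cd3. Within the cells with a Cd3 UMI the ratio of Tnfrsf4 was 7.54 (3.99 to 16), on 10 and 155 UMIs, and those of the other 5 lay between 2.26 and 2.85. In the cells without, Tnfrsf4 had 1 and 4 UMIs and Pdcd1 2 and 2. Tnfrsf9 there had a ratio of 3.74 (1.08 to 16.4, on 4 and 10 UMIs), Ctla4 one of 2.4 (0.691 to 9.31), Ikzf2 one of 1.09 (0.38 to 2.97) and Icos, on 8 and 1 UMIs, one of 0.187 (0.00422 to 1.4).

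In the dendritic cell clusters some of the genes had a higher level in the ketogenic library. In cluster 12, Tnfrsf4 was the only gene of 4 past 2-fold upward, against 5.55% of all genes, at 38.5 CPM in chow cells and 150 CPM in ketogenic cells (ratio 3.9, 2.16 to 7.46). In the cells of cluster 12 without a Cd3 UMI, 48 chow and 30 ketogenic, it stood at 33.5 and 161.5 CPM (ratio 4.82, 2.34 to 10.9). The 10 CD4 T cell markers summed to 110 and 225.5 CPM in the whole of cluster 12, the NK markers to 200.3 and 555 CPM, the cDC2 markers to 457 and 121 CPM and the monocyte markers to 749.7 and 237 CPM, and apart from the split by Cd3 their part in the result was not tested. Ikzf2, Icos and Tnfrsf4 were past 2-fold upward of 7 genes in cluster 5 (4.24% of all genes) and of 7 in cluster 6 (3.02% of all genes). Tnfrsf18 in cluster 6, at 38.5 and 77.2 CPM (interval of the ratio 1.58 to 2.56), was just under 2-fold with 0.5 added to each count and was not counted. The CD4 T cell markers moved with them, from 108 CPM in chow to 448 CPM in ketogenic cells of cluster 5 and from 68.9 to 225 CPM in cluster 6, and their part in the result was not tested beyond a split by Cd3. In cells of cluster 6 without a Cd3 UMI, Tnfrsf4 had 9 UMIs in each library (ratio 0.928, 0.326 to 2.64). In cells of cluster 5 without one its ratio was 4.12 (1.64 to 12.3), on 6 and 24 UMIs. In those cells Ikzf2 had a ratio of 1.8 (0.706 to 4.96) and Icos one of 2.75 (1.02 to 8.57). Cells of cluster 6 with a Cd3 UMI held 3 of 16 chow and 43 of 53 ketogenic Ikzf2 UMIs. For Icos they held 2 of 7 and 22 of 34.

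In the B and plasma-like cluster 9, 4 of 6 genes (Ikzf2, Icos, Tnfrsf4 and Tnfrsf18) were at least 2-fold higher, in a cluster where 21.4% of all genes were. A single ketogenic cell supplied 33.3% of its Tnfrsf4 UMIs there, 70 of the 78 ketogenic Tnfrsf4 UMIs lay in cells with a Cd3 UMI, and the CD4 T cell markers stood at 109 and 480 CPM. Il10 was lower, at 35.4 and 18.8 CPM (ratio 0.53, 0.306 to 0.93), and so were the plasma cell markers, at 138746 and 86003 CPM. It was higher in cells without a UMI of the B cell gene Ms4a1, at 61.3 and 31.2 CPM, than in cells with one, at 13.2 and 8.37 CPM. The part of either list in these ratios was not tested beyond these splits. In cluster 8, Ctla4 and Icos of 7 genes were past 2-fold upward (4.65% of all genes), each on 32 chow and 6 ketogenic UMIs (ratio 2.17, 0.741 to 5.25), and 1 ketogenic cell supplied 83.3% of those of Ctla4 and 50% of those of Icos. Il10 there had 26 and 1 UMIs (ratio 0.444, 0.0108 to 2.71) and was not past 2-fold with 0.5 added. In cluster 3, Ikzf2, Il2ra and Il10 of 7 genes were at least 2-fold lower in the ketogenic library (5.4% of all genes), where each had at most 4 UMIs. Their ratios were 0.322 (0.0643 to 0.993) for Ikzf2 and 0.406 (0.107 to 1.1) for both Il2ra and Il10, whose interval took in 1. The CD4 T cell markers stood at 128.5 and 286 CPM in cluster 8 and at 134 and 266.5 CPM in cluster 3. The ILC2 markers stood at 373 and 218 CPM in cluster 8 and, lower with the called genes, at 421 and 149 CPM in cluster 3, and the NK markers at 210 and 517 CPM in cluster 3. For both clusters their part in these ratios was not tested.

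The 142 cells without a cluster were compared in the same way. Ikzf2, Tnfrsf4 and Tnfrsf18, 3 of the 8 genes with 10 or more UMIs there, were higher in the ketogenic cells with intervals that did not overlap, as were 3.75% of all genes with as many UMIs.

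Summed over whole libraries, all 10 genes had a higher level in the ketogenic library, as did 60.8% of all genes with 20 or more UMIs. The ratios ran from 1.12 for Il10, with an interval that took in 1 (0.926 to 1.35), to 3.22 for Tnfrsf4 (2.93 to 3.53). Of the 10, 6 were at least 2-fold higher (Tnfrsf4, Tnfrsf9, Pdcd1, Icos, Tnfrsf18 and Ikzf2), against 7.02% of all genes. Cluster shares differ between the libraries, so the sums were repeated with each cluster given the same weight in both, the mean of its shares of cells. The ratio of Foxp3 then went from 1.54 (1.23 to 1.93) to 0.782 and that of Il10 to 0.799. Ctla4 stood at 0.993, Il2ra at 0.907, Ikzf2 at 1.13 and Icos at 1.12. Tnfrsf9 (1.72), Tnfrsf4 (1.53), Pdcd1 (1.53) and Tnfrsf18 (1.37) kept ratios above those.

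**Figure D5:**
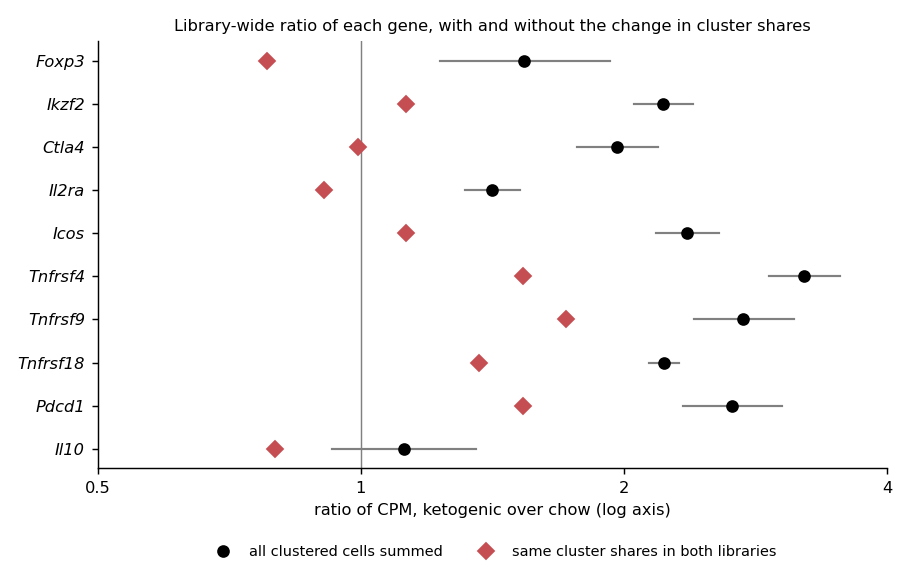
Ratio of CPM, ketogenic over chow, on a log axis, for all clustered cells summed (black, with exact 95% counting intervals) and with the same cluster shares in both libraries (red diamonds, no interval). Foxp3 moves from 1.54 to 0.782, and Tnfrsf9, Tnfrsf4, Pdcd1 and Tnfrsf18 stay above 1.36.

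Lists of related genes were read in cluster 7 by the same rule, under which 9.11% of all genes were past 2-fold in either direction. Of 9 ligand genes, 4 reached 20 UMIs (Tnfsf9, Cd274, Pdcd1lg2 and Il2) and none was past 2-fold in either direction. Il2, the growth factor sensed through Il2ra, stood at 30.1 and 41.7 CPM there and was highest in the T-like cluster 2, at 45 and 65.3 CPM. Tnfsf9, the ligand of CD137, had its highest level in the cDC2-like cluster 5, at 611 and 779 CPM, and stood at 68.2 and 52.3 CPM in cluster 7. Tnfsf18, the ligand of GITR, had no UMI in cluster 7 and was scarce everywhere, at 0.394 and 2.24 CPM in its highest cluster, 3. All 4 receptor genes for IL-2 and IL-10 reached the minimum and none was past 2-fold, with Il2rb at 132.5 and 180 CPM and Il10ra at 86.3 and 82.7 CPM.

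Of 12 other co-stimulatory and co-inhibitory receptors, 7 reached the minimum. Cd96 and Cd160 were at least 2-fold higher in the ketogenic library, each on 2 chow UMIs, and Cd27 stood at 169 and 275 CPM (ratio 1.63, 1.29 to 2.09). Of 12 other Treg genes, 9 reached it, and Cd81 (52.2 and 117 CPM) and Lrrc32 (6.02 and 17.7 CPM) were past 2-fold upward. The chow level of Lrrc32 is that of 3 UMIs, the limit used for a count of 0. Tgfb1, which encodes a cytokine made by many leukocytes, stood at 237 and 409 CPM (ratio 1.73, 1.42 to 2.12). All 12 genes of visceral adipose Treg cells reached the minimum. Pparg, the lipid-sensing receptor these cells are known for, stood at 18.1 and 42.4 CPM (ratio 2.35, 1.16 to 5.38), and Irf4 at 44.2 and 19.1 CPM (ratio 0.432, 0.237 to 0.796). Il1rl1 stood at 596 and 379 CPM (ratio 0.636, 0.55 to 0.735) and Areg, the gene of amphiregulin, at 1654 and 1451 CPM. Gata3 was alike, at 496 and 495 CPM. Several of these genes differed in other clusters too. Irf4 was past 2-fold lower in clusters 5, 6, 8, 9 and 10 as well, and past 2-fold higher in cluster 2. Il1rl1 stood at 790 and 513 CPM in cluster 0 and was past 2-fold lower in clusters 3 and 8. Pparg was past 2-fold higher in cluster 8 and lower in cluster 6, and Cd81 was past 2-fold higher in clusters 8, 11 and 12.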

How the data were processed

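The authors deposited 1 matrix of UMI counts for each library, not normalised and whole numbers throughout. Cell Ranger, Seurat and mm10 are named in the submitters' processing notes, and their versions and settings are not given in the sources used here. Clusters are those of the authors' deposited table (other columns not used), made at resolution 0.5 as its column name says, and 142 cells have none. The 10 genes and the gene lists were chosen with earlier results of these data known.

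Counts were summed per cluster and library and given as CPM with exact Poisson intervals. Ratios have exact conditional intervals, shares of cells exact binomial (Clopper-Pearson) ones, all at 95%, for counting error only. UMIs of 1 library are not replicates, so no test was made. Log2 ratios have 0.5 added to each count. A gene was counted as past 2-fold if its log2 ratio, with that 0.5 added, was at least 1 in size and both libraries together held 20 or more of its UMIs in that cluster. Thinning to 1000 UMIs used the exact hypergeometric expectation, rounded to whole cells for counts of cells. A limit for a count of 0 is 3 counts. Named genes are the 10, the 3 genes most like each (at least 100 UMIs, receptor segments left out) and the members of 5 lists, and 1 gene that this rule names is not reported here. Clusters were named from marker genes raised at least 2-fold against all other clusters (CPM + 20) and present among the 10 leading genes. Scripts were tested on simulated data and ran in Python 3.11.15 with NumPy 2.4.6, SciPy 1.17.1 and pandas 2.3.3.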

Additional observations from a re-analysis of the deposited data

Results flagged for a closer look

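Ikzf2 was at least 2-fold apart between the libraries in opposite directions in 2 clusters. Its log2 ratio, ketogenic over chow, was 2.11 in the B and plasma-like cluster 9, on 3 and 37 UMIs, and -1.43 in the macrophage-like and monocyte-like cluster 3, on 53 and 3 UMIs. The difference between these ratios was not tested. Cells with a Cd3 UMI held 33 of the 37 ketogenic UMIs of cluster 9, and their part in the result was not tested.

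The 142 cells without a cluster enter none of the comparisons by cluster, and of 8 genes with 10 or more UMIs there, 3 had a higher level in the 55 ketogenic than in the 87 chow cells, with intervals that did not overlap, against 3.75% of all genes with as many UMIs. Ikzf2 stood at 233.5 CPM in ketogenic cells (168 to 317) and 85.5 CPM in chow cells (51.5 to 133.5). Tnfrsf4 stood at 85.4 CPM (47.8 to 141) and 13.5 CPM (2.78 to 39.4). Tnfrsf18 stood at 393 CPM (306 to 497) and 126 CPM (83.7 to 182).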

How the results depend on the processing

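The share of Foxp3 UMIs in cluster 7 was 74.9% in chow and 71% in ketogenic cells with cells thinned, and 70.5% in ketogenic cells with free RNA subtracted. Without thinning, 2.06% of chow and 2.97% of ketogenic cells had a Foxp3 UMI, with cells thinned to 1500 UMIs 1.12% and 1.48%, and in lymphoid clusters only 1.39% of chow and 1.28% of ketogenic cells. The ratio of these shares, ketogenic over chow, was 1.29 as reported, 1.44 without thinning and 0.924 in lymphoid clusters only, so its direction turned with the denominator. The count of 1 gene past 2-fold in cluster 7 and the 9 genes higher in cells with Foxp3 moved by less than 1.5 times under every alternative run. With cells split at 2 or more Foxp3 UMIs, 7 of the 9 genes and 22% of all genes were higher in both libraries. Of the 30 genes named as most alike, 6 were named again by Spearman's rho, 11 from chow sums alone and 11 from ketogenic sums alone, so these names depend on the measure.

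The 95 log2 ratios of a gene in a cluster were recomputed 587 times, and 577 values stayed within the counting interval. Of 24 ratios past 2-fold with 0.5 added to each count, 3 fell under it at least once, Icos in cluster 5 (lowest log2 ratio 0.89), Ikzf2 in cluster 6 (0.87) and Il10 in cluster 3 (nearest to 0 at -0.98). The log2 ratio of Tnfrsf9 in cluster 7 ran from 1.11 to 1.43, and without the cell richest in the gene in each library it stayed past 2-fold. The splits by Foxp3, Il1rl1, Cd3, Cd4 and Cd8 UMIs and the removal of the richest cell were chosen after seeing the data. No paired analysis was possible because each diet has 1 library. Ratios with under 10 UMIs in a library, such as those of Ikzf2 in clusters 3 and 9, have wide intervals.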
